A study of Rattus norvegicus with 7 samples.

Results

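The miR-29 family was measured in cultures labelled as rat primary skeletal muscle cells, kept in differentiation medium with or without interleukin-6 (IL-6). The muscle-specific miRNAs were detected on none of the arrays. Its members were taken by name and are rno-miR-29a-3p, rno-miR-29b-3p and rno-miR-29c-3p (the prefix for rat is dropped below), which is 3 of the 719 rat miRNAs on the array and 6 of its 1730 probes. The cells came from limb muscle of newborn rats, were bought frozen from a cell collection, and were studied on day 11 after a switch to low-serum medium. The control group held 3 untreated samples and the IL-6 group 4 samples with recombinant IL-6 at 1 ng/ml. The labels name no strain or genotype, and each sample had 1 single-colour array. Nothing in the labels says that replicates were separate cultures, and p-values here cover the spread between samples alone, which may be technical. In total RNA of a whole culture, fewer cells of a type and less RNA per cell cannot be told apart.

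A miRNA guides a silencing complex to messenger RNAs that pair with its seed, the bases near its 5′ end. miR-29 is best known for lowering collagens and other matrix proteins, and it is called anti-fibrotic for that reason. It also targets de novo DNA methyltransferases. In muscle it rises as myoblasts differentiate, where it targets the repressor YY1, and NF-kB acting through YY1 can silence it. IL-6, a cytokine released by contracting muscle and in inflammation, signals mainly through STAT3.

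The mature sequences are shown because they set which changes can be told apart on the array. They are RefSeq entries of the GRCr8 build, matched by name for all 3 members, with bases 2 to 8 (the seed) in capitals.
miR-29a-3p: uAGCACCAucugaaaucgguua
miR-29b-3p: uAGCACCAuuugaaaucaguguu
miR-29c-3p: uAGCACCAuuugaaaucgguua
Among 693 mature rat miRNA names in the RefSeq table, these 3 alone had this seed. Counted from the 5′ end, miR-29a-3p and miR-29c-3p differed by 1 base, C10U. miR-29a-3p and miR-29b-3p differed at 4, C10U, G18A, U21G and A22U. miR-29b-3p and miR-29c-3p differed at 3 of the 22 bases they share in length, A18G, G21U and U22A, and miR-29b-3p is 1 base longer.

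The family comes from 2 clusters. miR-29a-3p lies at chr4:60617968-60617989 on the minus strand of GRCr8, and the hairpin of the first miR-29b copy, Mir29b1, is 291 bases away on the same strand, with its mature 3p arm at chr4:60618342-60618364. On the plus strand of chromosome 13 the second copy, Mir29b2, has its 3p arm at chr13:109098882-109098904, and Mir29c follows 447 bases on, with miR-29c-3p at chr13:109099412-109099433. Both hairpins on chromosome 13 lie within the annotated long noncoding RNA LOC102550527. The 2 miR-29b copies give the same 3p sequence, so a probe for miR-29b-3p cannot tell the clusters apart, whereas miR-29a-3p is made from one cluster and miR-29c-3p from the other.

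Each member had 2 probes of different length. The brighter probe of each is printed 5′ to 3′, with capitals at the bases that fail to pair with at least 1 other member.
miR-29a-3p, 20 bases: TAacCgatttcaGatggtgc
miR-29b-3p, 22 bases: AACacTgatttcaAatggtgct
miR-29c-3p, 22 bases: TAacCgatttcaAatggtgcta
The miR-29a-3p probe pairs with 19 of its 20 bases to miR-29c-3p, and the miR-29c-3p probe with 21 of its 22 bases to miR-29a-3p. The miR-29b-3p probe leaves 4 bases unpaired on miR-29c-3p and 5 on miR-29a-3p. How much signal the members share across these mismatches was not measured, so miR-29a-3p and miR-29c-3p may not be separate readouts. Levels of different probes are not set against each other here.

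All 3 members were expressed on every array. Each probe was printed 10 times per array, and all 6 probes were well above background on all 7 arrays. Of the family's 420 spots, 22 marked as outliers were left out and 0 were saturated. The spots of a probe varied by 0.859% to 9.04% (CV, median 5.33%), an error of at most 0.04 on the log2 scale for a probe on an array.

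No member passed the test between IL-6 and control, and all 3 had higher mean levels with IL-6. The difference was 27.2% for miR-29b-3p, 11.2% for miR-29a-3p and 11.5% for miR-29c-3p. In the same fit, 17 of 181 tested miRNAs passed (9.39%; limma, Benjamini-Hochberg adjusted p under 0.05). The levels below are log2 of a scaled signal: the background-subtracted intensity of a probe divided by the 75th percentile of its array over 268 probes that were well above background throughout.

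miR-29b-3p, the member made from both clusters, had log2 levels of 9.53, 9.85 and 9.96 on control replicates 1 to 3. On IL-6 replicates 1 to 4 it was at 10.02, 10.12, 10.16 and 10.21. Every IL-6 array lay above every control array, although the highest control and the lowest IL-6 array were close, and control replicate 1 was the lowest of all. The group means were 9.78 ± 0.22 (SD, n = 3) and 10.13 ± 0.08 (SD, n = 4). The log2 fold change was 0.35 ± 0.11 (SE), with a 95% interval from 0.08 to 0.61, unadjusted p = 0.0184 and Benjamini-Hochberg adjusted p = 0.107 over the 181 (limma). It ranked 5th from the top among the 181 by fold change and 31st by p-value. A two-sided exact permutation test gave p = 0.0286, and no smaller p can be had from the 35 splits of 7 arrays. Groups failed to overlap for 40 of the 181 miRNAs (22.1%), and with IL-6 the higher for 21 (11.6%), so this separation is common in these arrays.

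The second miR-29b-3p probe, 1 base shorter, showed the same pattern. Its log2 levels were 9.12, 9.47 and 9.62 in control and 9.64, 9.77, 9.81 and 9.90 with IL-6. The order of the arrays was that of the first probe, and again the groups did not overlap. The log2 fold change was 0.38 ± 0.12 (SE; limma over 292 probes, Benjamini-Hochberg adjusted p = 0.0789). In that fit 18 probes passed (6.16%), none of them from the family.

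miR-29a-3p, from the chromosome 4 cluster, had log2 levels of 10.67, 10.84 and 10.79 in control and of 10.91, 10.84, 10.93 and 11.01 with IL-6. The groups met at control replicate 2 and IL-6 replicate 2. The means were 10.77 ± 0.09 (SD, n = 3) and 10.92 ± 0.07 (SD, n = 4), a log2 fold change of 0.15 ± 0.06 (SE) with a 95% interval from 0.02 to 0.29. The unadjusted p was 0.0326 and the Benjamini-Hochberg adjusted p 0.149 (limma), with a two-sided exact permutation p of 0.0857. Unadjusted p-values under 0.05 were found for 49 of the 181 miRNAs (27.1%), miR-29a-3p and miR-29b-3p among them. The shorter 19-base probe gave a smaller difference, 0.09 ± 0.07 (SE; limma over probes, adjusted p = 0.505), and its groups overlapped too.

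miR-29c-3p, from the chromosome 13 cluster, had log2 levels of 7.63, 7.87 and 7.89 in control and of 7.80, 7.91, 8.01 and 8.09 with IL-6. IL-6 replicate 1 lay below control replicates 2 and 3, so the groups overlapped. The means were 7.80 ± 0.14 (SD, n = 3) and 7.95 ± 0.13 (SD, n = 4). The log2 fold change was 0.16 ± 0.09 (SE), with a 95% interval from -0.07 to 0.38 and a Benjamini-Hochberg adjusted p of 0.364 (limma). Its second probe had log2 levels of 7.29, 7.48 and 7.48 in control and 7.50, 7.53, 7.67 and 7.71 with IL-6. These groups did not overlap, and the difference was 0.19 ± 0.08 (SE; limma over probes, adjusted p = 0.176). Groups did not overlap for 76 of the 292 probes (26.0%, both directions together), among them 3 of the family's 6. Those 3 were both miR-29b-3p probes and this second miR-29c-3p probe, each with IL-6 the higher. Probes of the same miRNA are not separate observations, so nothing is read from this count.

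**Figure D1:**
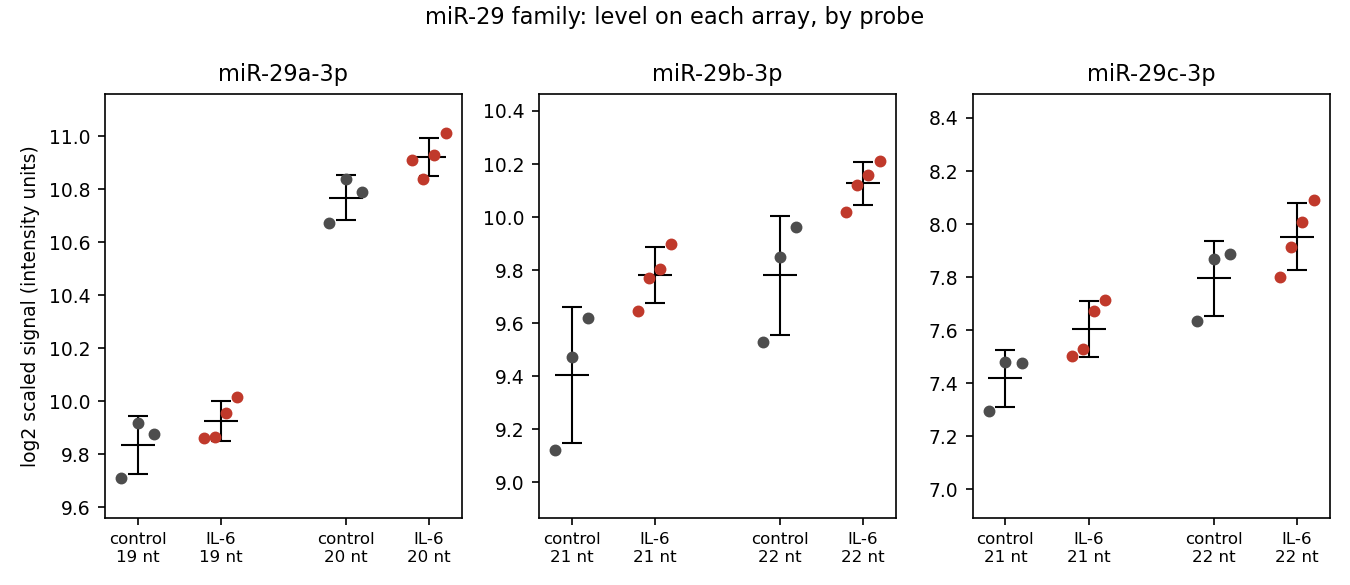
Log2 scaled signal of each miR-29 member on each array, by probe length in bases (nt); points are arrays (3 control, 4 IL-6), bars the mean ± SD. Each panel spans the same log2 range but starts at another level; control replicate 1, the leftmost point of each control group, is the lowest array for all 6 probes.

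Among the 181 tested miRNAs the median log2 fold change was 0.02, and 99 were positive. miR-29b-3p lay near the upper end of this distribution, while miR-29a-3p and miR-29c-3p ranked 34th and 31st from the top. The interval of miR-29c-3p includes 0, and those of miR-29a-3p and miR-29b-3p reach down to 0.02 and 0.08. These intervals are not adjusted for the 181 tests, and no member passed. Neither the size nor the sign is therefore settled by 7 arrays for any member.

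**Figure D2:**
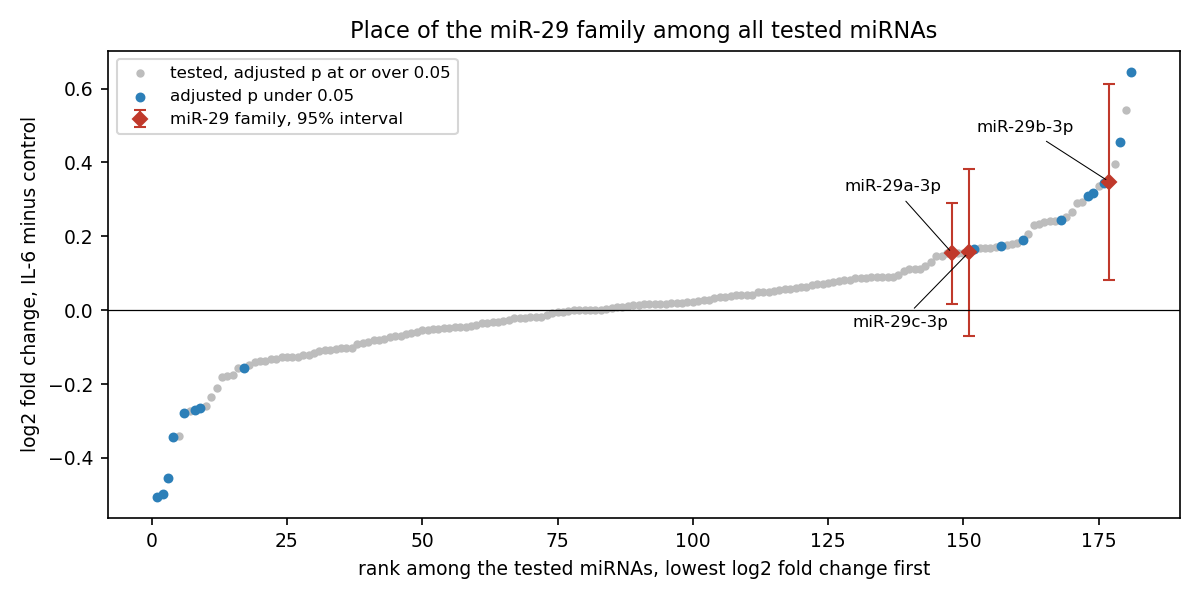
Log2 fold change (IL-6 minus control) of the 181 tested miRNAs, ranked from lowest to highest; blue points passed the test, and diamonds with 95% intervals are the miR-29 members. The 3 members are on the positive side, miR-29b-3p 5th from the top, and none passed.

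The position of the arrays on the slide bears on every difference. All 7 shared 1 slide and 1 scan time. The controls were in row 1 and the IL-6 arrays in row 2, and the effects of row and of treatment cannot be told apart. Slide columns 1, 3 and 4 each held 1 control and 1 IL-6 array. Column 2 held IL-6 replicate 2 and no control. Within these columns the miR-29b-3p difference was 0.49, 0.31 and 0.25 on the log2 scale. For miR-29a-3p it was 0.23, 0.09 and 0.22, and for miR-29c-3p 0.16, 0.14 and 0.20. All 6 probes of the family were higher with IL-6 in each of the 3 columns, as were 95 of the 292 probes fitted (32.5%). The 6 probes read 3 correlated members on the same array pairs and are not separate observations. With slide column as a block, miR-29c-3p had 0.17 (adjusted p = 0.0660), miR-29b-3p 0.35 (adjusted p = 0.0774) and miR-29a-3p 0.18 (adjusted p = 0.108), and no miRNA of the 181 passed (limma; 52 had an unadjusted p under 0.05).

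The overall brightness of the arrays varied, and the size of the family's difference depends on how that is scaled. The 75th percentile of the processed signal ran from 419 to 492 intensity units in control and from 434 to 615 with IL-6, a log2 difference of 0.18 (two-sided exact permutation p = 0.286). Before scaling, miR-29b-3p read 630, 874 and 999 units in control and 914, 1394, 1216 and 1247 with IL-6. The unscaled groups overlapped, since IL-6 replicate 1 lay below control replicate 3. Unscaled groups failed to overlap for 17 of the 181 miRNAs (9.39%), none of them in the family. Without scaling the log2 fold change was 0.52 for miR-29b-3p, 0.33 for miR-29a-3p and 0.33 for miR-29c-3p, with the median over the tested miRNAs at 0.17. Relative to that median the values were 0.35, 0.16 and 0.16. Scaling to the spike-in RNAs gave 0.53, 0.34 and 0.34 with a median of 0.18. The 75th percentile over all probes, most of them without signal, gave 0.21, 0.01 and 0.02 with a median of -0.12, or 0.32, 0.13 and 0.13 relative to it. No member passed under any of these scalings (limma, adjusted p from 0.139 to 1). Across all 27 alternatives with a limma fit, miR-29b-3p stood 0.22 to 0.45 above the median of the tested miRNAs, miR-29a-3p 0.05 to 0.19 and miR-29c-3p 0.06 to 0.22.

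**Figure D3:**
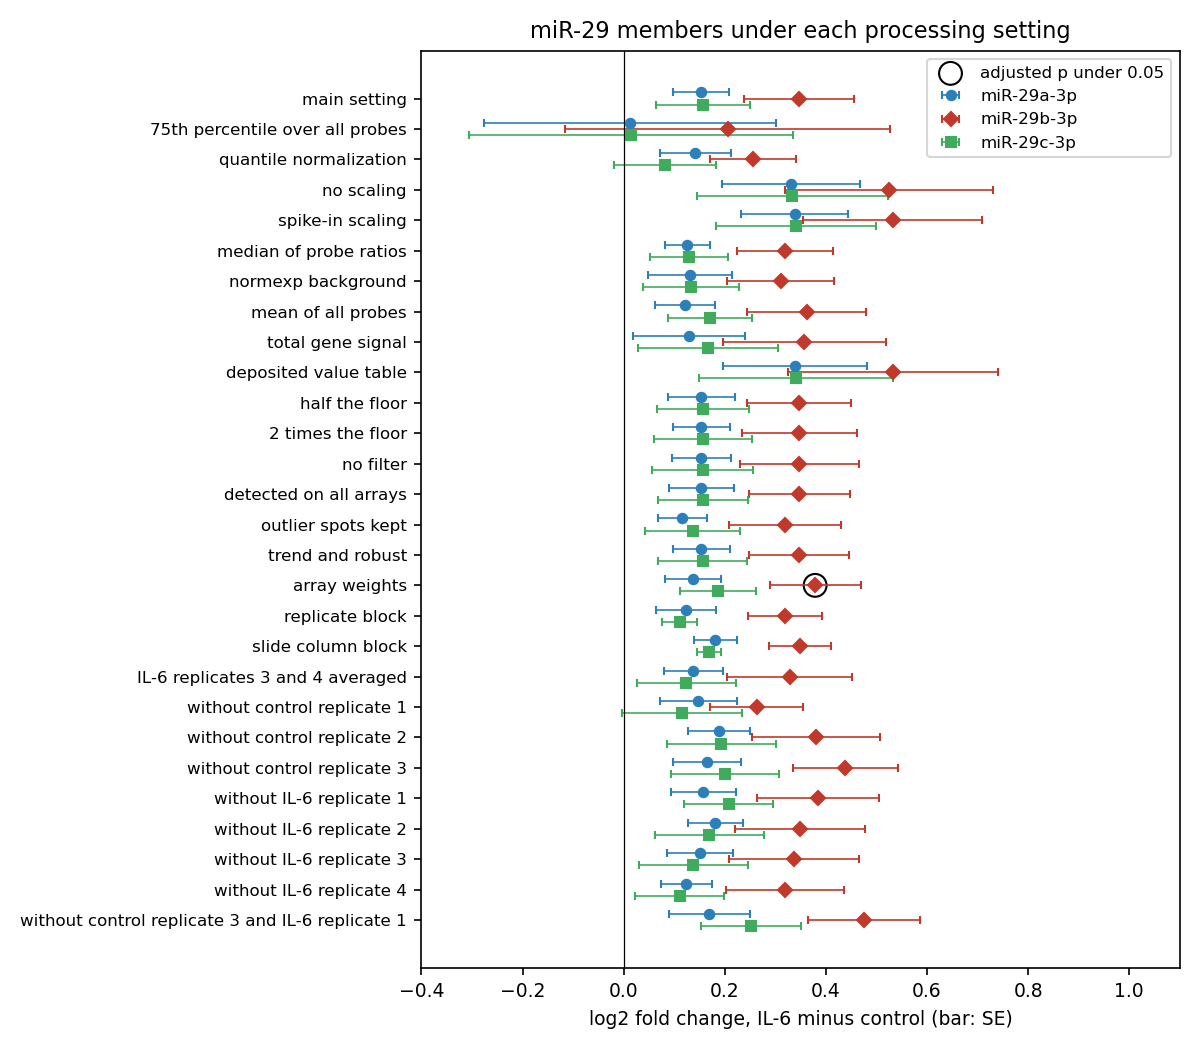
Log2 fold change (IL-6 minus control, bars: SE) of the 3 miR-29 members under the main setting and 27 alternatives. The floor, filter, and trend and robust settings cannot change these fold changes. All values are positive; the circle marks the 1 value with adjusted p under 0.05, miR-29b-3p with array weights.

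The call for miR-29b-3p changed in 1 setting. With array weights, which let limma count noisier arrays less, its log2 fold change was 0.38 ± 0.09 (SE; limma, adjusted p = 0.0282). That fit called 47 of the 181 miRNAs. Across the other alternatives with a limma fit the adjusted p of miR-29b-3p was at or above 0.05.

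Ratios between members within an array do not depend on the scaling between arrays, and they show whether the members moved apart. Relative to the control mean, the log2 ratio of miR-29b-3p to miR-29c-3p was -0.09, -0.01 and 0.09 on the controls and 0.24, 0.22, 0.17 and 0.14 on the IL-6 arrays. All 4 IL-6 arrays lay above all 3 controls. How often ratios of other miRNA pairs separate in this way was not tested, so the separation alone does not set this pair apart. The difference was 0.19 ± 0.05 (SE, 95% interval 0.06 to 0.32), with a two-sided exact permutation p of 0.0286 and 0.0857 after Benjamini-Hochberg adjustment over the 3 pairs. Leaving out 1 array at a time gave 0.15 to 0.24. The miR-29a-3p to miR-29b-3p ratio was 0.16, 0.0037 and -0.16 on the controls and -0.10, -0.27, -0.22 and -0.19 with IL-6. These groups overlapped through control replicate 3, and the difference was -0.19 ± 0.09 (SE, 95% interval -0.42 to 0.03; exact permutation p = 0.0857, adjusted p = 0.129). With 1 array left out it ran from -0.27 to -0.12, and the value nearest 0 was the one without control replicate 1.

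The miR-29a-3p to miR-29c-3p ratio was 0.07, -0.0018 and -0.07 on the controls and 0.14, -0.05, -0.05 and -0.05 with IL-6. The difference was -0.0029 ± 0.06 (SE), with an exact permutation p of 1 and a 95% interval from -0.17 to 0.16. A difference in response of up to that size between the near-identical pair is not excluded. No pair passed after adjustment. A single pair at the smallest exact permutation p, 0.0286, has an adjusted p of 0.0857, as miR-29b-3p to miR-29c-3p had. A lone separated pair could therefore not pass, and nothing is concluded from its failure.

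**Figure D4:**
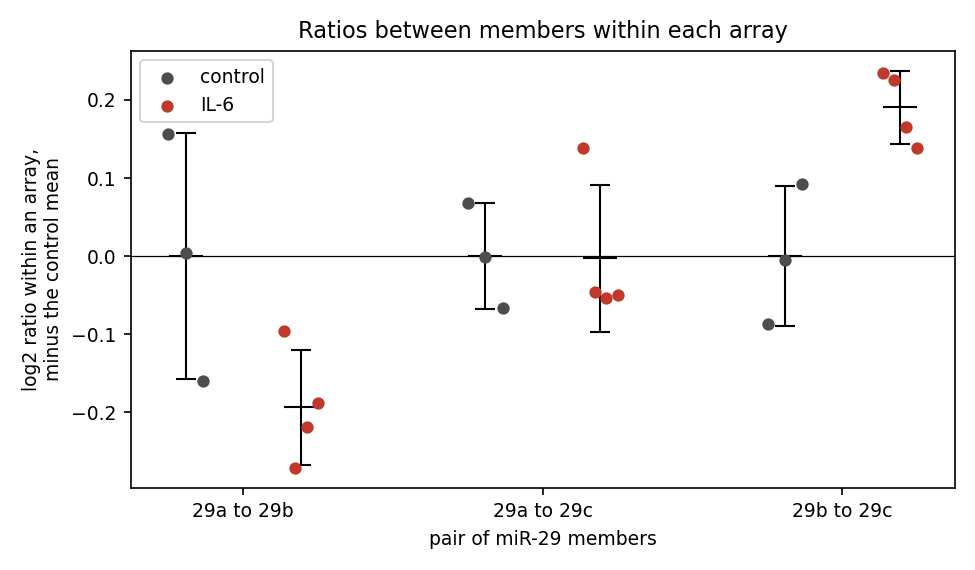
Log2 ratio of 1 miR-29 member to another within each array, minus the mean over controls; points are arrays (3 control, 4 IL-6), bars the mean ± SD. The miR-29b to miR-29c ratio is higher on all 4 IL-6 arrays than on the 3 controls; the other pairs overlap.

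The opposite arms of the hairpins could show which locus was active, since the 5p arms differ between the miR-29b copies. They are printed for that reason, from RefSeq (GRCr8), with bases 2 to 8 in capitals.
miR-29a-5p: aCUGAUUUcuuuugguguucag
miR-29b-1-5p: uUUCAUAUggugguuuagauuu
miR-29b-5p, from the second copy: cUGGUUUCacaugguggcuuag
miR-29c-5p: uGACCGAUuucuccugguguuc
These 4 arms had 14 probes on the array. None of the 14 was well above background on any array, and their 98 signals ran from -8.14 to 12.8 intensity units. The dimmest probe well above background read 12.9 to 18.2 units, depending on the array. The 12.8 was miR-29a-5p on IL-6 replicate 4, the array where that limit was 18.2. miR-29a-5p was called detected on 2 of 4 IL-6 arrays and 0 of 3 controls, and the other arms on no array. Over all miRNAs, 179 to 207 were detected per IL-6 array and 174 to 185 per control array, so nothing is read from that split. The source of miR-29b-3p in these cells, from chromosome 4 or 13, was therefore not resolved, and no fold change is given.

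RefSeq also lists miRNAs on the opposite strand of the same hairpins: miR-3556a at Mir29a, miR-3587 at Mir29b1 and miR-3556b at Mir29c. Their 6 probes gave 42 signals between -4.90 and 1.53 intensity units, none well above background. For these probes 21 spots marked as outliers were left out, and the brightest of them read 2352 units.

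Some miRNAs outside the family followed its members across the 7 arrays. Over 173 candidates, the highest Pearson correlations with miR-29a-3p were those of miR-181c-5p (0.970), miR-185-5p (0.949) and miR-410-3p (0.938). miR-29b-3p was followed most closely by miR-24-2-5p (0.960), miR-376a-3p (0.959) and miR-411-5p (0.956). For miR-29c-3p they were miR-151-5p (0.944), miR-337-3p (0.929) and miR-376c-3p (0.919). The members correlated with each other at 0.86 to 0.90. These values are descriptions over arrays that share a slide and a scaling. Of the 9 followers, miR-376a-3p (0.46 ± 0.10 SE) and miR-185-5p (0.17 ± 0.03 SE) rose with IL-6 (limma, adjusted p = 0.0447 and 0.0400). These calls were lost in 18 and 20 of 27 alternatives. The 2 of 9 stand beside 9.39% of all tested miRNAs, but the 9 were chosen by a correlation over all 7 arrays that includes the group difference, so nothing is read from their count.

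The other miRNAs tied to fibrosis, to myogenesis and to the NF-kB and STAT3 pathways were set beside the family. Over all tested miRNAs, 17 of 181 were called (9.39%), and nothing is read from the count in a list this short. Of 13 anti-fibrotic miRNAs outside it, 9 were tested and none rose or fell; the median log2 fold change was 0.07, against 0.02 for all tested miRNAs. Values were 0.10 ± 0.04 (SE) for miR-26a-5p, 0.02 ± 0.06 for let-7d-5p and -0.10 ± 0.03 for miR-24-3p. Of 9 pro-fibrotic miRNAs, 8 were tested and none rose or fell, with a median of -0.03. Here miR-21-5p, which STAT3 induces, had 0.04 ± 0.08, and miR-143-3p and miR-199a-3p, abundant in mesenchymal cells, had -0.13 ± 0.08 and -0.04 ± 0.08.

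Of 15 pro-myogenic miRNAs outside the family, 13 were on the array under the listed names and 6 were tested. Calls in this list and the next stand beside 17 of all 181 tested miRNAs (9.39%), and nothing is read from their count. miR-181a-5p, which promotes myoblast differentiation, rose by 0.31 ± 0.06 (SE; limma, adjusted p = 0.0240), a call lost in 15 of 27 alternatives. The median of the 6 was -0.03, and miR-214-3p had 0.03 ± 0.04. Of the 10 NF-kB and STAT3 responsive miRNAs 6 were tested, with a median of -0.18. These were both arms of miR-21, miR-221-3p, miR-222-3p, miR-132-3p and miR-212-3p, so not all come from separate hairpins. The value was positive for 1, miR-21-5p (0.04), and negative for 5. Only miR-132-3p, which CREB also induces, was called lower, at -0.27 ± 0.06 (SE, limma adjusted p = 0.0408). That call was lost in 18 of 27 alternatives. miR-221-3p had -0.09 ± 0.04.

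Markers of cell type were read on the same arrays. The 7 muscle-specific miRNAs, among them miR-1-3p, miR-133a-3p and miR-206-3p, were detected on no array, and their highest probe signal was 9.23 intensity units. The defining miRNAs of differentiated muscle were thus below detection in cells labelled as skeletal muscle, on arrays that all detected miR-29. Of 6 markers of fibroblasts or smooth muscle, all 7 arrays detected 5, and the summed signal of the list was 19918 to 25140 units in control and 18349 to 28102 with IL-6. Muscle cells also express some of these. No endothelial or epithelial marker was detected, 1 of 6 blood markers was detected on 1 array, and 3 of 8 neural markers were detected on every array. Their part in the level of miR-29 was not tested.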

How the data were processed

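Cy3-labelled total RNA was hybridised to single-colour Agilent arrays, per the labels' protocols. The authors deposited the intensity of each spot, background-subtracted by Feature Extraction 10.10.1.1 and not scaled between arrays, per the file headers. On each array the authors' value table matched the scanner files' total probe signal at all 15095 spots (tolerance 0.001), so it is linear, uncentred and unscaled. Titles and series design gave the groups; the growth protocol names IL-6 on the controls too.

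Outlier-marked spots (2.88% to 3.84%) were left out and spots averaged per probe. Signals were divided by the 75th percentile of the array (268 probes, each above background throughout), floored at 15.7 and log2-transformed. Above background meant that a share of at least 0.5 of a probe's spots were flagged so. Each miRNA took its brightest probe. A miRNA entered the test when all arrays of a group detected it (181 did), and lmFit and eBayes (limma 3.58.1, R 4.3.3) compared the groups, with Benjamini-Hochberg adjustment and a threshold of 0.05. Precision is limited by the number of arrays (median SE 0.07). Exact permutation tests compared group means over 35 splits. The fit was tested on simulated data.

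The members, lists and alternatives were chosen with earlier results of these data known. Named were the members, their opposite arms, the 3 closest miRNAs by correlation for each member, and of each list those past the threshold (up to 4), then the highest in level until 3, with miR-21-5p. The opposite-strand miRNAs and the muscle-specific miRNAs named as examples were chosen outside this rule. Alternatives covered scaling, background, probe choice, signal column, floor, filter, limma settings, blocks, permutation and left-out arrays. List entries not matched by name were not analysed here. The array annotation is on rn4; printed positions are those of RefSeq on GRCr8.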

Additional observations from a re-analysis of the deposited data

Results flagged for a closer look

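In the IL-6 group, 30 quantities were searched for an array that stood apart from the other 3. In 4 of them its gap, as a share of the whole range, exceeded Dixon's 95% critical value, which chance does in about 1 of 20 groups. Within the family it was the miR-29a-3p to miR-29c-3p log2 ratio, which relative to the control mean was 0.14 on IL-6 replicate 1 and -0.05 on each of the others (ratio 0.965). The mean log2 spike-in signal of that same array was 11.74, against 11.85 to 11.86 on the others (ratio 0.953). Control replicate 1, in the same slide column, was also the lowest of its group for this signal, at 11.80 against 11.86 and 11.84. IL-6 replicate 2 was low for miR-214-3p, at 10.73 against 10.85 to 10.87 (ratio 0.848). miR-410-3p, a follower of miR-29a-3p, was 5.50 on IL-6 replicate 4 and 5.38 elsewhere (ratio 0.948).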

How the results depend on the processing

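The 3 members kept a positive fold change in all 27 alternatives with a limma fit, and their side of the threshold in all but 1: with array weights miR-29b-3p passed (0.38, limma adjusted p = 0.0282; range over its alternatives 0.0282 to 1). Not all of these are separate checks of sign. The floor, the filter and limma's trend and robust options cannot change a member's fold change, so its sign there was fixed in advance. The slide column block gave the members the same values as leaving out IL-6 replicate 2. The replicate block gave nearly those without IL-6 replicate 4. Leaving out 1 array at a time gave 0.26 to 0.44 for miR-29b-3p (lowest without control replicate 1, highest without control replicate 3), 0.12 to 0.19 for miR-29a-3p and 0.11 to 0.21 for miR-29c-3p. Deviations of same-numbered arrays correlated at -0.18 to 0.52, and those of differently numbered arrays at -0.44 to 0.29. So few correlations cannot settle whether the replicate numbers pair the arrays. The arrays numbered 1 also shared slide column 1, so number and column cannot be told apart there. The pairs that sat in 1 slide column had 0.52, 0.19 and 0.13 (columns 1, 3 and 4), and the block for column is given beside the results. With a replicate block the members had 0.12 (miR-29a-3p), 0.32 (miR-29b-3p) and 0.11 (miR-29c-3p), with no call, and 3 of the tested miRNAs were called. The miR-29a-3p to miR-29c-3p ratio, at -0.0029, turned to 0.013 with the replicate block and 0.012 with the slide column block, was -0.083 with control replicate 3 and IL-6 replicate 1 both left out, and ran from -0.050 to 0.031 with 1 array left out. Tests of the ratios with fewer arrays could not reach 0.05.

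The count of 17 called miRNAs became 0 with the 75th percentile over all probes, no scaling, normexp background, the value table, no filter or the slide column block (1, 29, 7, 28, 41 and 52 with an unadjusted p under 0.05; limma). It was 4 with spike-in scaling, 5 with total gene signal, 6 with IL-6 replicates 3 and 4 averaged, 11 with 2 times the floor, 29 without control replicate 3 and IL-6 replicate 1, and 47 with array weights. Leaving out 1 array gave 0 to 15: 0 without control replicate 1 or IL-6 replicate 3 (31 and 39 with an unadjusted p under 0.05), 8 without IL-6 replicate 4, and it was 2 where control replicate 2 was left out. Calls that were higher went from 9 of 17 to 4 of 4 with spike-in scaling, 7 of 18 with quantile normalization, 6 of 18 with outlier spots kept and 11 of 25 with the median of probe ratios. The cause was not tested.

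Signs also turned for miRNAs outside the family that were not called. With the 75th percentile over all probes: miR-21-5p -0.10, miR-26a-5p -0.046, let-7d-5p -0.12, miR-214-3p -0.11, miR-411-5p -0.052 and miR-337-3p -0.034. Without scaling miR-221-3p had 0.090, miR-24-3p 0.076, miR-143-3p 0.051 and miR-199a-3p 0.13; scaled to the spike-ins, and likewise in the deposited table, these 4 had 0.10, 0.083, 0.058 and 0.14. let-7d-5p had -0.0095 with quantile normalization, -0.010 with the median of probe ratios, -0.0098 with total gene signal, -0.011 with outlier spots kept, -0.016 with the mean of probes, -0.0035 with the slide column block, and -0.012 to 0.057 with 1 array left out. miR-199a-3p had 0.033 with array weights, 0.068 with control replicate 3 and IL-6 replicate 1 both left out, and -0.073 to 0.018 with 1 array left out.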
